A study of Homo sapiens with 6 samples.

Results

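The genes described here are 8 transcriptional targets of p53 that act in the cellular stress response: MDM2, GADD45A, CCNG1, SESN1, SESN2, TP53INP1, ZMAT3 and TRIAP1. They were chosen by symbol, and every probe set annotated to 1 of them and to no other gene was taken. That gave 24 of the 41091 single-gene probe sets, and 8 of the 19775 genes those probe sets read.

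The 6 Affymetrix arrays hold RNA of KARPAS-422 and Pfeiffer, established human lines of diffuse large B-cell lymphoma, which arises from mature B cells. Both lines were kept with fetal bovine serum (10%), and in the presence of polybrene (8 µg/ml) they were exposed for 2 days to a lentivirus that carried a hairpin RNA against EZH2 (shEZH2) or a control hairpin aimed at no mammalian sequence (shNTC). All groups then had 2 days of puromycin at 1 µg/ml, and the labels give 10 days of knockdown. KARPAS-422 had 2 arrays per arm, called biological replicates, and Pfeiffer 1 per arm. Each arm rests on a single hairpin sequence, and the labels do not say whether replicates came from separate infections, so a p-value covers the spread among these arrays only, which may be technical. In bulk RNA, fewer cells that express a gene and less RNA per cell cannot be told apart.

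p53 is a transcription factor that is kept scarce in unstressed cells and accumulates after DNA damage or other stress. It then binds paired DNA elements near its targets and raises genes that halt the cell cycle, repair DNA, restrain growth signalling or favour cell death. MDM2 closes a feedback loop, since it is raised by p53 and marks p53 for degradation. Several targets also answer to other stress pathways: SESN2 and GADD45A can be induced through the integrated stress response, in which ATF4 is the central transcription factor. EZH2 is the histone H3 methyltransferase within Polycomb repressive complex 2 and keeps genes silent.

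The hairpins are shown because they define the arms. Capitals mark the first of the 21-base stems, whose reverse complement forms the other stem.
shEZH2: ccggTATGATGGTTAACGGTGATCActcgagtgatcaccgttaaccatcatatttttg
shNTC: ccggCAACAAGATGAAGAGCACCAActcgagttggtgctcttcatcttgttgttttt

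The p53 response element consensus was searched in RefSeq promoter windows (GRCh38.p14) that run from 250 bases before to 50 after each start site. An element here is a pair of adjoining 10-base units with at most 3 mismatches in the 20 bases, a limit chosen after hits in these windows had been seen. The consensus reads the same on both strands, and overlap with other motifs was not examined. Of 35116 windows, 5.2% held such an element. Of 13 windows of MDM2, CCNG1, SESN1, SESN2, ZMAT3 and TRIAP1, 3 did: a pair of overlapping MDM2 windows and 1 of SESN1. GADD45A had no window among these, and windows on the chromosome of TP53INP1 were left out of the gene windows. Nothing is therefore known here of elements in the promoters of either gene. The elements are in capitals, with 5 flanking bases on each side, and the coordinates cover all 30 bases shown. Distances for MDM2 are from the start site of the first of its overlapping windows. They are shown because they lie beside a gene that did not pass the test below (MDM2) and one that did (SESN1).
MDM2 at chr12:68808918-68808947, plus strand, element starting 94 bases before the start site: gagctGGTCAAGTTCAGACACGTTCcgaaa
MDM2 at chr12:68808956-68808985, plus strand, element starting 56 bases before the start site: aaaggAGTTAAGTCCTGACTTGTCTccagc
SESN1 at chr6:109009013-109009042, minus strand, element starting 49 bases before the start site: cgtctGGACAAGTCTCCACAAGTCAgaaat
The letters match the consensus at 18, 17 and 17 of 20 bases, in the order shown. No array value here says whether p53 was bound there.

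All values are log2 MAS5 signals, and a difference is shEZH2 minus shNTC on that log2 scale, so 1 unit is a doubling. The arrays were scaled alike, with a 2% trimmed mean of 500 on the linear scale on all 6. For the ACTB control probe sets, the 3' end read 0.0593 and 0.083 log2 units above the 5' end with shNTC in KARPAS-422. With shEZH2 it read 0.138 and 0.175 above. For GAPDH the same gap was -0.1825 and -0.1577 with shNTC and -0.1693 and -0.2409 with shEZH2, so the arms overlapped. The part of these gaps in the results was not tested. The B cell markers MS4A1, CD79A, CD79B, PAX5 and CD22 all passed the filter on dim signals, with a summed level of 15 to 15.3 in KARPAS-422 and 15.2 to 15.3 in Pfeiffer, while 1 of 5 myeloid markers did. Of 6 T and NK cell markers 4 passed and of 5 fibroblast and epithelial markers all 5, led by CD3D, CD3G and DCN in KARPAS-422 and by CD8A and EPCAM in Pfeiffer. Their summed levels were 12 to 12.8 and 13.5 to 13.8 in KARPAS-422, and 13.5 to 13.6 and 13.1 to 13.5 in Pfeiffer; their part in the results was not tested.

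EZH2 was lower with shEZH2 in both lines. It read 11.71 and 11.57 with shNTC in KARPAS-422 against 10.52 and 10.55 with shEZH2, a difference of -1.11 (SE 0.10, n = 2 per arm, limma adjusted p = 0.000773). In Pfeiffer it read 11.65 and then 10.24.

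In KARPAS-422, 4 of the 8 genes rose with EZH2 knockdown and 2 fell. GADD45A rose by 2.64, TP53INP1 by 1.36, SESN1 by 0.97 and ZMAT3 by 0.59, while CCNG1 fell by 0.48 and TRIAP1 fell by 0.41. MDM2 and SESN2 did not pass the test. Of all 13036 genes tested, 25.4% passed (13.1% higher and 12.3% lower), and the 8 genes stand at 6 of 8. Their median difference was 0.30, against -0.019 over all genes. The 8 genes were chosen with earlier results of these data known, so neither contrast is a test of the set. The 2 arms did not overlap for 6 of the 8 genes (4 higher and 2 lower with shEZH2), and for 65.7% of all genes (31.8% higher and 33.9% lower).

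**Figure D1:**
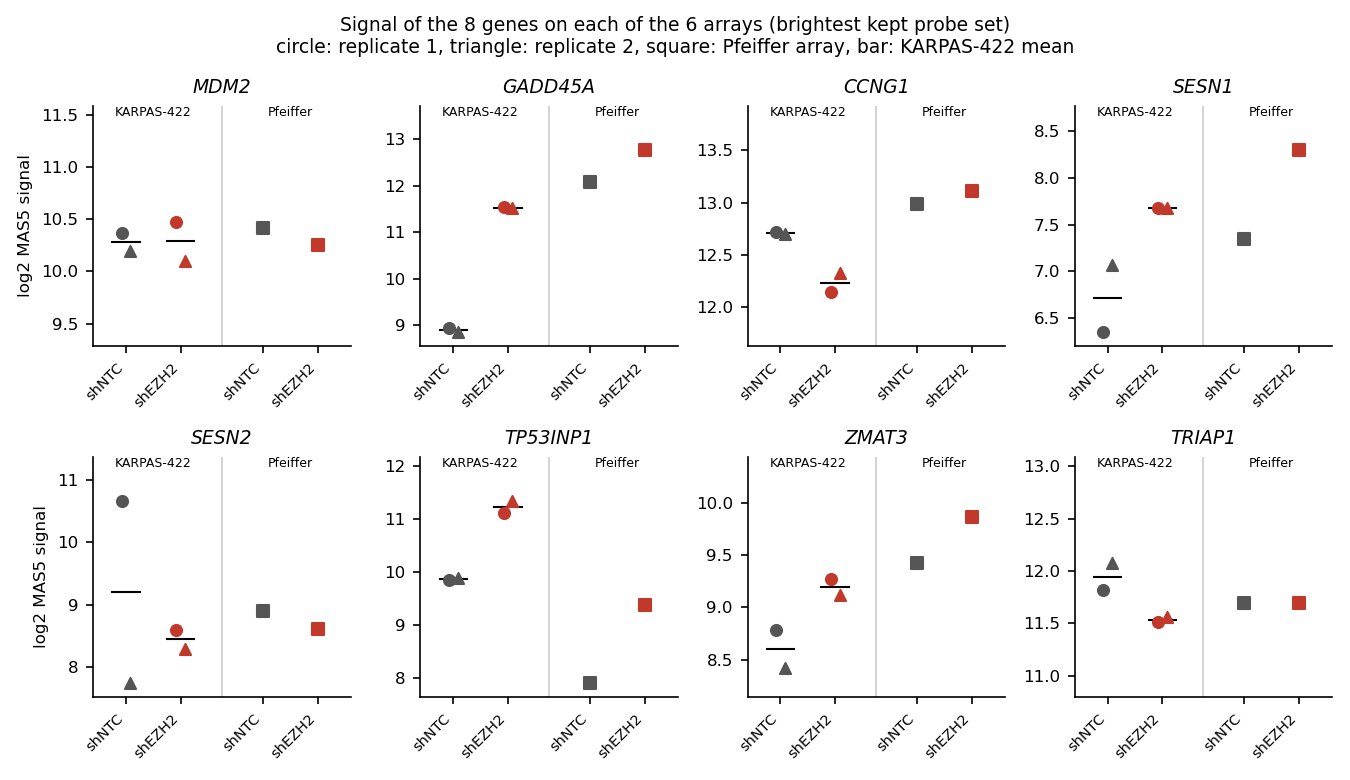
Log2 MAS5 signal of each gene (vertical axis, its own range per panel) on the 6 arrays, by line and hairpin; circles are replicate 1, triangles replicate 2, squares the Pfeiffer arrays and bars the KARPAS-422 means. GADD45A goes from 8.94 and 8.85 to 11.54 and 11.52 in KARPAS-422, and the SESN2 panel has a lone shNTC array at 10.65.

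MDM2 is the ubiquitin ligase that targets p53 for degradation. Its brightest probe set read 10.37 and 10.20 with shNTC in KARPAS-422 against 10.47 and 10.10 with shEZH2, and went from 10.42 to 10.25 in Pfeiffer. The arms overlapped, and all 6 arrays lay within a narrow band. The difference in KARPAS-422 was 0.0039 (SE 0.15, 95% interval -0.35 to 0.36, limma adjusted p = 0.988). The sign of so small a value turned with the scaling: it was -0.048 after quantile normalization, -0.055 after median centring and -0.017 after cyclic loess, and 0.60 (adjusted p = 0.347) on a different, dimmer probe set when _s_at and _x_at probe sets were left out.

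MDM2 was read by 10 probe sets, of which 6 passed the filter on dim signals. In KARPAS-422, 3 of the 6 read lower and 3 higher with shEZH2, from -0.53 to 0.60, and 0 passed limma over 25186 probe sets, of which 21.5% did; 1 had an unadjusted p under 0.05. That probe set, the second brightest, read 9.88 and 9.93 with shNTC and 9.66 and 9.52 with shEZH2, with arms that did not overlap (-0.32, SE 0.12, adjusted p = 0.107). In Pfeiffer it went from 9.71 to 9.77. Another, dimmer probe set read 1.09 higher in Pfeiffer, from 5.85 to 6.95, and 0.099 higher in KARPAS-422. The 4 MDM2 probe sets that failed the filter ranged from 2.36 to 7.01 and moved in both directions.

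GADD45A encodes a small nuclear protein that binds PCNA and stress kinase regulators and restrains cell division after DNA damage. It read 8.94 and 8.85 with shNTC in KARPAS-422 against 11.54 and 11.52 with shEZH2. In Pfeiffer it read 12.09 with shNTC and 12.76 with shEZH2. The KARPAS-422 arms were far apart and the replicates within 0.09 of each other, and both Pfeiffer arrays lay above every KARPAS-422 array. The KARPAS-422 difference of 2.64 (SE 0.10, limma adjusted p = 4.01e-05) corresponds to a 6.22-fold higher signal. It was the 120th highest difference and the 4th smallest p among the 13036 genes.

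TP53INP1, a stress-induced protein that takes part in autophagy and in p53-dependent cell death, rose in KARPAS-422 and read higher in Pfeiffer. Its brightest probe set read 9.86 and 9.88 with shNTC in KARPAS-422 against 11.12 and 11.33 with shEZH2, and went from 7.90 to 9.37 in Pfeiffer. Both shEZH2 arrays of KARPAS-422 lay above both controls, and the Pfeiffer shEZH2 array stayed below the KARPAS-422 controls. The difference was 1.36 in KARPAS-422 (SE 0.13, limma adjusted p = 0.000823) and 1.48 in Pfeiffer. The gene's other 2 probe sets failed the filter, at 1.60 to 6.60.

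The sestrins are stress proteins that hold back mTORC1, the kinase complex that couples nutrients to growth. SESN1 read 6.35 and 7.07 on the KARPAS-422 shNTC arrays, then 7.68 on both shEZH2 arrays, and went from 7.35 to 8.30 in Pfeiffer. Its control arrays differed by 0.72 from each other and stayed below the shEZH2 arrays. The difference was 0.97 in KARPAS-422 (SE 0.29, limma adjusted p = 0.0463) and 0.95 in Pfeiffer. SESN1 no longer passed in KARPAS-422 when shNTC replicate 1 was left out (0.61, adjusted p = 0.13), nor when shEZH2 replicate 1 (0.97, adjusted p = 0.19) or 2 (0.97, adjusted p = 0.192) was. Nor did it pass without the filter (adjusted p = 0.0884), after quantile normalization (0.0947), median centring (0.0504) or cyclic loess (0.0771), without the intensity trend (0.113) and in KARPAS-422 alone (0.0503).

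SESN2 differed more between the KARPAS-422 controls than between the arms. Its brighter probe set read 10.65 on shNTC replicate 1, 7.74 on shNTC replicate 2, 8.60 and 8.29 on the shEZH2 arrays, and 8.90 and 8.61 in Pfeiffer. Its other probe set showed the same array apart: 10.73, 8.08, 8.35 and 8.23 in the same KARPAS-422 order, and 8.44 and 8.63 in Pfeiffer. shNTC replicate 1 thus stood 2.91 above its fellow control on the brighter probe set, the 24th highest such gap of 13036 genes, while the shEZH2 arrays fell between the controls. The difference was -0.75 (SE 0.78, 95% interval -2.59 to 1.09, limma adjusted p = 0.52). Without shNTC replicate 1 it turned to 0.70 (adjusted p = 0.0532), and without shNTC replicate 2 it was -2.21 and passed (adjusted p = 0.000141).

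The same control array was high for genes of the integrated stress response, the amino acid and endoplasmic reticulum stress programme led by ATF4. All 9 listed genes (ATF4, ATF3, DDIT3, TRIB3, ASNS, CHAC1, DDIT4, PSAT1 and SLC7A11) had their highest KARPAS-422 value on shNTC replicate 1, as had 24.1% of all genes. ASNS, asparagine synthetase, read 13.73 and 12.41 with shNTC and 12.06 and 12.05 with shEZH2. The stress factor DDIT3 read 10.72 and 8.60 against 8.79 and 8.11, and CHAC1, an enzyme that degrades glutathione, 12.05 and 6.64 against 8.13 and 7.39. In limma 0 of the 9 passed in KARPAS-422, where 25.4% of all genes did. An unadjusted p under 0.05 was seen for 2: ASNS (-1.01, adjusted p = 0.0767) and PSAT1, a serine synthesis enzyme (-0.86, adjusted p = 0.0912). Both passed without shNTC replicate 2 (ASNS -1.68, adjusted p = 2.87e-05; PSAT1 -1.45, adjusted p = 7.29e-05), as did DDIT3 (-2.27, adjusted p = 0.000538), CHAC1 (-4.29, adjusted p = 1.98e-05) and ATF4 (-1.24, adjusted p = 0.000447). With the replicate block ASNS, PSAT1 and DDIT3 passed (adjusted p = 0.0261, 0.0273 and 0.0264). Without shNTC replicate 1, ASNS was at -0.35 (adjusted p = 0.0689) and PSAT1 at -0.26 (adjusted p = 0.153), while CHAC1 turned and passed at 1.13 (adjusted p = 0.0406). The list's median was -0.67 in KARPAS-422 and -0.094 in Pfeiffer, against -0.019 and 0.032 over all genes. The part of this array in the SESN2 reading is given by the values above; its source was not tested.

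**Figure D2:**
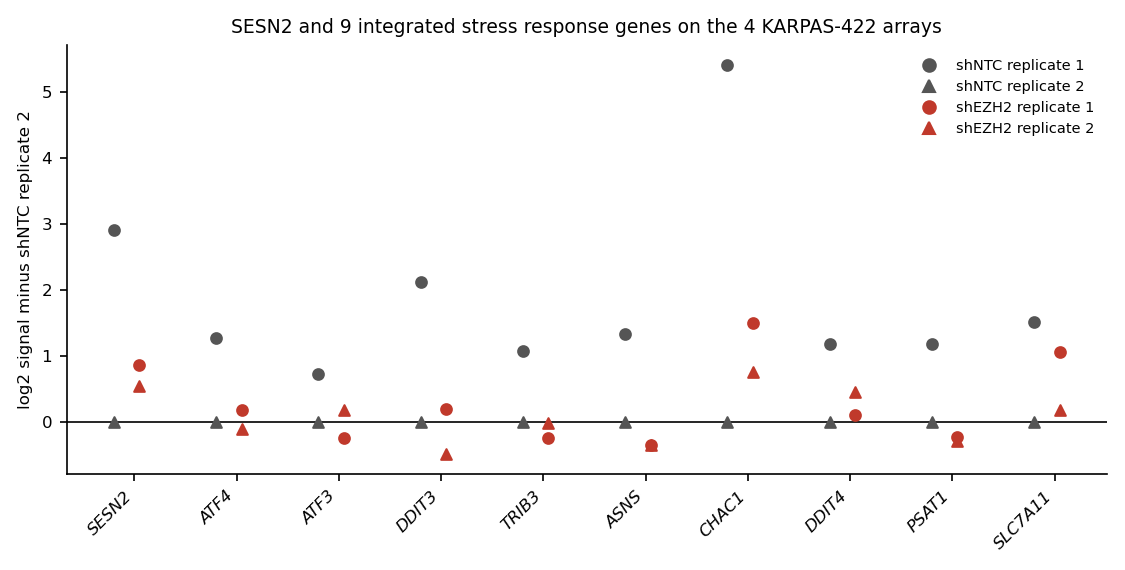
Log2 signal of SESN2 and of 9 integrated stress response genes on the 4 KARPAS-422 arrays, each as the difference from shNTC replicate 2 (the line at 0); grey marks the control hairpin and red shEZH2. The shNTC replicate 1 array (grey circles) is the highest for all 10 genes, by 2.91 over shNTC replicate 2 for SESN2.

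ZMAT3 is a zinc-finger RNA-binding protein that regulates splicing and transcript stability downstream of p53. Its brightest probe set read 8.79 and 8.42 with shNTC in KARPAS-422 against 9.27 and 9.12 with shEZH2, and went from 9.43 to 9.86 in Pfeiffer. The KARPAS-422 arms did not overlap. The difference was 0.59 in KARPAS-422 (SE 0.17, limma adjusted p = 0.0406) and 0.44 in Pfeiffer. On this probe set it no longer passed when shNTC replicate 2 was left out (0.41, adjusted p = 0.125), nor when shEZH2 replicate 1 (0.51, adjusted p = 0.201) or 2 (0.67, adjusted p = 0.124) was. The adjusted p was 0.0672 with no filter, 0.13 after quantile normalization (0.40), 0.0613 after median centring, 0.0896 after cyclic loess and 0.116 with no intensity trend. All 5 ZMAT3 probe sets rose in KARPAS-422 in the fit over probe sets, by 0.59 to 0.97, with adjusted p of 0.014 to 0.0483. These calls also rested on single arrays and on the intensity trend. When shEZH2 replicate 1 was left out, the 5 had adjusted p of 0.0937 to 0.198, and with no trend 0.0741 to 0.129. Of the 5, 1 passed when shEZH2 replicate 2 was left out, 2 when shNTC replicate 1 was and 4 when shNTC replicate 2 was. In Pfeiffer the 5 read 0.35 to 0.46 higher. They read 1 transcript pool and are not replicates of each other.

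**Figure D3:**
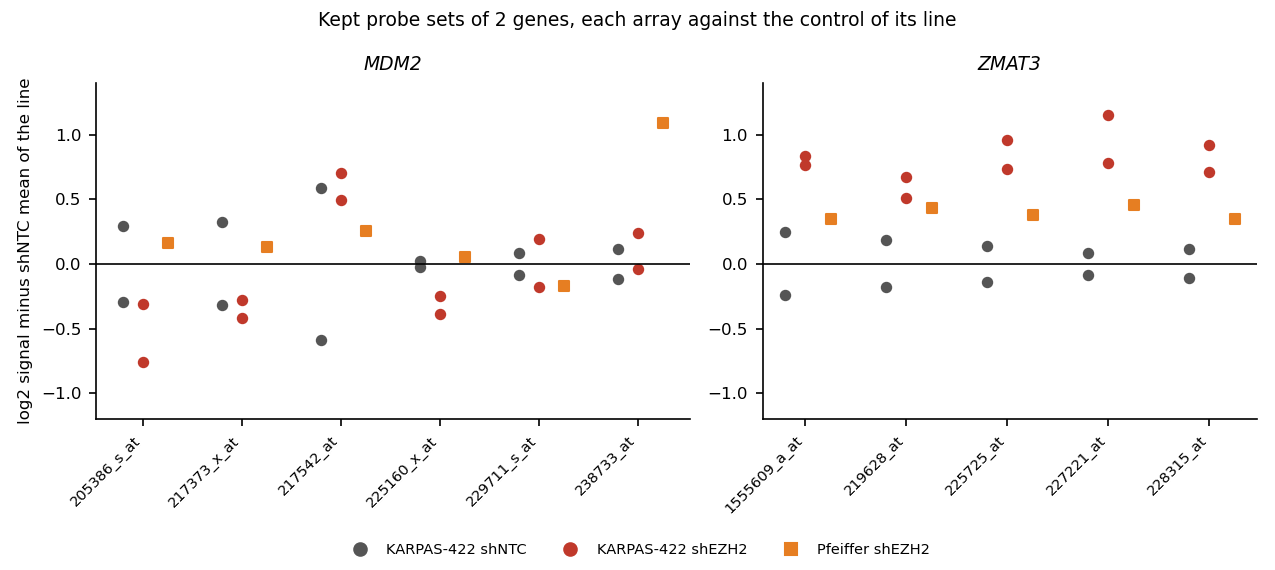
Log2 signal on each array minus the shNTC mean of its line, for the kept probe sets of MDM2 (left, 6) and ZMAT3 (right, 5); grey points are KARPAS-422 shNTC, red KARPAS-422 shEZH2 and orange squares Pfeiffer shEZH2. All red points of ZMAT3 lie above the grey ones, and those of MDM2 fall on both sides, with differences from -0.53 to 0.60.

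CCNG1 and TRIAP1 went the other way in KARPAS-422. CCNG1, cyclin G1, is a p53 target that brings a phosphatase to MDM2. It read 12.72 and 12.70 with shNTC in KARPAS-422 against 12.14 and 12.32 with shEZH2, and 12.99 and 13.11 in Pfeiffer with shNTC and shEZH2. The KARPAS-422 arms did not overlap, and the Pfeiffer arrays lay above both. CCNG1 fell by 0.48 in KARPAS-422 (SE 0.09, limma adjusted p = 0.00911) and differed by 0.13 in Pfeiffer. CCNG1 no longer passed when shEZH2 replicate 1 was left out (-0.39, adjusted p = 0.0576), after cyclic loess (-0.29, adjusted p = 0.0511) or with no intensity trend (adjusted p = 0.0921).

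TRIAP1 is a mitochondrial protein that helps move lipids between membranes and inhibits apoptosis. It read 11.82 and 12.07 with shNTC in KARPAS-422 against 11.52 and 11.56 with shEZH2, and 11.69 and 11.70 in Pfeiffer. The arms did not overlap in KARPAS-422, and the Pfeiffer arrays were nearly equal. TRIAP1 fell by 0.41 (SE 0.11, limma adjusted p = 0.0315). It no longer passed when shNTC replicate 2 was left out (-0.28, adjusted p = 0.142), nor when shEZH2 replicate 1 (-0.39, adjusted p = 0.147) or 2 (-0.43, adjusted p = 0.123) was. The adjusted p was 0.0543 with no filter, 0.0774 after cyclic loess (-0.31) and 0.138 with no intensity trend.

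Of the 6 calls in KARPAS-422, those of GADD45A and TP53INP1 held under every alternative tried, with values of 2.49 to 2.68 and 1.25 to 1.46. The count of called genes was 5 without shNTC replicate 1, 2 without shEZH2 replicate 1, 5 without shNTC replicate 2 and 3 without shEZH2 replicate 2. With the replicate number as a block it was 6, where 27.8% of all genes passed.

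In Pfeiffer, with 1 array per arm and no test, 6 of the 8 genes read higher with shEZH2 on their brightest probe set, and MDM2 (-0.17) and SESN2 (-0.29) lower. The other 5 kept MDM2 probe sets read 0.057 to 1.09 higher there, and the other SESN2 probe set 0.19 higher. Over all genes, 54.6% read higher. TP53INP1 was the only one of the 8 past 1 log2 unit, at 1.48; 3.23% of all genes read at least 1 unit higher and 1.48% lower. SESN1 followed at 0.95, GADD45A at 0.67 and ZMAT3 at 0.44. CCNG1 (0.13) and TRIAP1 (0.0069), which fell in KARPAS-422, read near their control level.

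**Figure D4:**
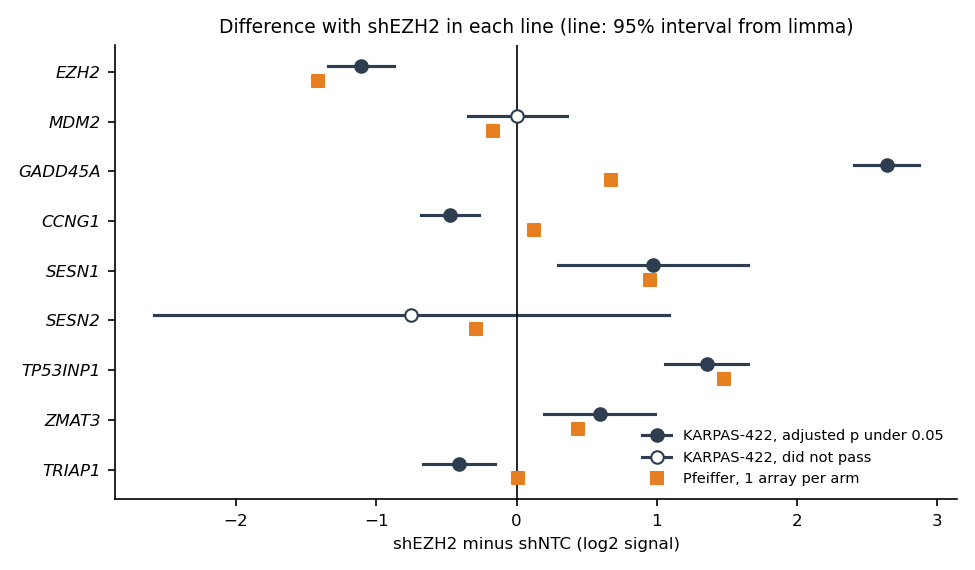
Difference of shEZH2 minus shNTC in log2 signal for EZH2 and the 8 genes; circles are KARPAS-422 with 95% intervals from limma (filled where the adjusted p passed), and squares are Pfeiffer, with 1 array per arm and no error. TP53INP1 and SESN1 lie close together in the lines (1.36 and 1.48, 0.97 and 0.95), and GADD45A far apart (2.64 and 0.67).

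Over both lines, with the line as a term, 2 of the 8 genes rose and 0 fell, against 6.22% of all genes called (3.76% higher and 2.46% lower). The 811 genes called split into 490 higher and 321 lower, and after median centring into 463 higher and 1031 lower. TP53INP1 rose by 1.40 (SE 0.11, n = 3 per arm, limma adjusted p = 0.00764) and GADD45A by 1.98 (SE 0.35, limma adjusted p = 0.0312). SESN1 at 0.96 (adjusted p = 0.0543) and ZMAT3 at 0.54 (adjusted p = 0.0639) were next and did not pass. SESN1 did pass after median centring (adjusted p = 0.0499) and with pseudocounts of 16 (adjusted p = 0.0479) and 64 (adjusted p = 0.0415), and ZMAT3 when averaged over kept probe sets (0.67, adjusted p = 0.0475). With no intensity trend TP53INP1 and GADD45A did not pass (adjusted p = 0.118 and 0.133), a setting in which 0% of all genes passed. With the replicate block 0.0844% of all genes passed. Without 1 KARPAS-422 array few genes of any kind passed, 0.13% or 0%. TP53INP1 then had adjusted p = 0.0991 when shEZH2 replicate 1 was left out (1.47), 0.0541 for shNTC replicate 2 (1.41) and 0.12 for shEZH2 replicate 2 (1.35). GADD45A had adjusted p = 0.106 when shNTC replicate 1 was left out (1.82), 0.131 for shNTC replicate 2 (1.77), 0.173 for shEZH2 replicate 1 (1.79) and 0.168 for shEZH2 replicate 2 (1.80), and 0.0827 with the replicate block.

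The effect of knockdown on GADD45A differed between the lines. The test of the difference itself, in which Pfeiffer is assumed to vary like KARPAS-422, gave 1.96 more in KARPAS-422 (SE 0.17, limma adjusted p = 0.00444), and 1.7% of all genes passed it (1.25% with more in KARPAS-422 and 0.453% with less). GADD45A was the only 1 of the 8 to pass, while SESN2 passed when shNTC replicate 2 was left out (-1.91, adjusted p = 0.00991). GADD45A no longer passed when shEZH2 replicate 1 (1.95, adjusted p = 0.116) or 2 (1.98, adjusted p = 0.102) was left out, settings in which 0% of all genes passed, or with no intensity trend (adjusted p = 0.104). With no trend 0.00767% of all genes passed. For TP53INP1 the difference between lines was -0.12 with a 95% interval of -0.63 to 0.39. For SESN1 it was 0.023 with an interval of -1.15 to 1.19. CCNG1 had the next smallest p, at -0.60 (adjusted p = 0.11).

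With the control hairpin, 3 of the 8 genes differed between the lines, against 44.2% of all genes (21.7% higher in KARPAS-422 and 22.5% lower). All genes called were 2832 higher and 2932 lower in KARPAS-422, and 3878 higher and 2375 lower after median centring, which moved the median of all genes from -0.0076 to 0.197. GADD45A was lower in KARPAS-422 (-3.19, SE 0.12, limma adjusted p = 1.63e-06), which makes its Pfeiffer signal 9.15-fold higher. Its order was KARPAS-422 shNTC, KARPAS-422 shEZH2, Pfeiffer shNTC and Pfeiffer shEZH2, with no overlap between groups. TP53INP1 was higher in KARPAS-422 by 1.97 (SE 0.15, limma adjusted p = 6.28e-05), with Pfeiffer shNTC lowest, then Pfeiffer shEZH2, KARPAS-422 shNTC and KARPAS-422 shEZH2. ZMAT3 was lower in KARPAS-422 (-0.82, SE 0.21, limma adjusted p = 0.0144), and did not pass with no intensity trend (adjusted p = 0.0553). MDM2 (-0.13, 95% interval -0.57 to 0.30, and 0.060 after median centring), CCNG1 (-0.28, interval -0.53 to -0.029, adjusted p = 0.0702), SESN1 (-0.64), TRIAP1 (0.25) and SESN2 (0.30) did not pass. SESN2 turned with 1 control array: -1.16 without shNTC replicate 1 (adjusted p = 0.00535) and 1.75 without shNTC replicate 2 (adjusted p = 0.000221). SESN1 passed without shNTC replicate 2 (-0.999, adjusted p = 0.0276). CCNG1 passed after quantile normalization (-0.32, adjusted p = 0.04), after cyclic loess (-0.40, adjusted p = 0.0198) and with the replicate block (-0.32, adjusted p = 0.0352), and TRIAP1 after median centring (0.45, adjusted p = 0.0228).

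Among paralogs of the 8 genes, the sestrin SESN3 rose. SESN3, the sestrin gene outside the set, read 9.04 on both shNTC arrays of KARPAS-422, 11.53 and 11.61 with shEZH2, and 6.51 and 7.95 in Pfeiffer. It rose by 2.53 in KARPAS-422 (SE 0.13, limma adjusted p = 8.21e-05) and read 1.44 higher in Pfeiffer. The KARPAS-422 call held under every alternative, at 1.99 to 2.58. Of 6 paralogs 5 were tested, and only SESN3 passed in KARPAS-422, where 25.4% of all genes passed (13.1% higher and 12.3% lower). Under some alternatives 3 others passed. GADD45B was at 0.30 in KARPAS-422 and -0.62 in Pfeiffer, although without _s_at and _x_at probe sets another probe set gave 1.96 (adjusted p = 0.0282) and the mean of its kept probe sets 0.66 (adjusted p = 0.0411). CCNG2 was at 0.52 (adjusted p = 0.0553) and -0.079, passing without shNTC replicate 1 (0.72, adjusted p = 0.0137), after quantile normalization (adjusted p = 0.0355) or cyclic loess (adjusted p = 0.0488) and in KARPAS-422 alone (adjusted p = 0.0474). TP53INP2 was at -0.35 and 0.86, passing after quantile normalization (-0.55, adjusted p = 0.0408). MDM4, the partner of MDM2 in holding p53 back, was at 0.24 and -0.021. GADD45G failed the filter on dim signals.

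Other p53 targets included genes that rose and one that fell in KARPAS-422. Of 26 listed genes, 20 were tested, 3 were dim and 3 had no single-gene probe set; 2 rose, 1 fell and 17 did not pass, where 25.4% of all genes passed (13.1% higher and 12.3% lower). The median of the 20 was -0.11, against -0.019 over all genes. The apoptosome scaffold APAF1 rose by 0.82 (SE 0.20, limma adjusted p = 0.0262), and TRIM22, an antiviral gene that interferon also induces, rose by 0.76 (SE 0.10, limma adjusted p = 0.00349). PIDD1, a death-domain protein that activates caspase-2 complexes, fell by 1.22 (SE 0.17, limma adjusted p = 0.00347). With no intensity trend TRIM22 (adjusted p = 0.0587) and APAF1 (adjusted p = 0.112) did not pass. APAF1 no longer passed when shNTC replicate 1 was left out (0.53, adjusted p = 0.0669), nor when shEZH2 replicate 1 (0.88, adjusted p = 0.126) or 2 (0.76, adjusted p = 0.165) was. Averaged over kept probe sets, APAF1 stood at 0.21 (adjusted p = 0.464) and PIDD1 at -0.52 (adjusted p = 0.0541). APAF1, TRIM22 and PIDD1 read 0.44, 0.11 and 0.071 higher in Pfeiffer. There 1 of the 20 was past 1 log2 unit, while 3.23% of all genes read at least 1 unit higher and 1.48% lower. It was the death receptor gene FAS, chosen after its values were seen, which read 8.56 with shNTC and 10.07 with shEZH2. In KARPAS-422 FAS read 12.11 and 12.14 with shNTC and 11.96 and 11.91 with shEZH2 (-0.19, adjusted p = 0.175).

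Regulators of p53 moved in both directions. Of 18 listed genes 17 were tested in KARPAS-422, and 3 rose, 3 fell and 11 did not pass, where 25.4% of all genes passed (13.1% higher and 12.3% lower). Their median was -0.14, against -0.019 over all genes. CREBBP, an acetyltransferase of p53 and histones, rose by 1.46 (SE 0.10, limma adjusted p = 0.000242). ATM and ATR, the kinases that report DNA damage to p53, rose by 0.52 (SE 0.12, limma adjusted p = 0.0193) and 0.46 (SE 0.09, limma adjusted p = 0.0116). The checkpoint kinases below them fell: CHEK1 by 0.90 (SE 0.12, limma adjusted p = 0.00352) and CHEK2 by 0.63 (SE 0.10, limma adjusted p = 0.00638). USP7, which removes ubiquitin from MDM2 and p53, fell by 0.47 (SE 0.11, limma adjusted p = 0.0221) on its brightest probe set, but by 0.030 when averaged over kept probe sets (adjusted p = 0.875) and by 0.14 (adjusted p = 0.441) without _s_at and _x_at probe sets.

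Of these 6, CREBBP alone passed with no intensity trend (adjusted p = 0.0225). CHEK1 (adjusted p = 0.0516), CHEK2 (0.0639), ATM (0.112), ATR (0.0853) and USP7 (0.13) did not. Some calls rested on single arrays. ATM did not pass when shNTC replicate 1 was left out (0.39, adjusted p = 0.0724), nor when shEZH2 replicate 1 (0.44, adjusted p = 0.129) or 2 (0.61, adjusted p = 0.0706) was, nor ATR in the same order (0.40, 0.46 and 0.47, adjusted p = 0.0521, 0.0729 and 0.0711). USP7 did not pass there either (-0.35, -0.56 and -0.37, adjusted p = 0.0936, 0.0639 and 0.137), nor CHEK2 without shEZH2 replicate 2 (-0.56, adjusted p = 0.0548). Averaged over kept probe sets ATM stood at 0.39 (adjusted p = 0.0601), and ATR stood at 0.41 (adjusted p = 0.0813) without _s_at and _x_at probe sets. In Pfeiffer CHEK1 read 0.72 lower, CHEK2 0.25 lower, CREBBP 0.29 higher, ATM 0.12 higher, ATR 0.061 higher and USP7 0.022 lower.

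Profiles over the 6 arrays most like those of 2 of the genes were found by the root-mean-square distance between log2 values centred on each gene's mean. For GADD45A these were HSH2D (distance 0.20), HCG26 (0.22) and FUT8-AS1 (0.22), with KARPAS-422 differences of 2.80, 3.05 and 2.43 and Pfeiffer differences of 0.66, 0.29 and 0.56. For CCNG1 they were RIDA (distance 0.044), LCP1 (0.047) and GPN1 (0.053), with KARPAS-422 differences of -0.51, -0.48 and -0.52.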

How the data were processed

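The authors deposited 1 table of log2 MAS5 signals, per the submitters' processing notes, which give no version of MAS5. The log base is not stated and was read from the values: the 2% trimmed mean of the linear values was 500 on each of the 6 arrays. Without detection calls or array dates in use here, no batch was tested. On the log scale MAS5 makes dim signals noisy.

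Probe sets were filtered on signal (at least 2 of 6 arrays above 6.21, the median of all values), which kept 18 of the 24 probe sets of the 8 genes. The brightest kept probe set stood for each of 13036 genes, with no pseudocount. limma 3.58.1 in R 4.3.3 (lmFit, then trended eBayes) gave two-sided tests, adjusted by Benjamini-Hochberg over all genes and called at 0.05. A model of 4 groups (2 residual and 5.24 prior degrees of freedom) served KARPAS-422 and the comparisons between lines, and a model with a line term served both lines. The number of arrays limits the precision. Scripts were tested on simulated data.

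The 8 genes, 4 further gene lists and the naming rules were chosen with earlier results of these data known. EZH2, the 8 genes and all paralogs are named, with up to 4 called genes per direction of each other list in KARPAS-422, or the 2 with the smallest p. Nearest profiles (3 genes each) are given for the largest difference and the largest called fall among the 8. FAS, ATF3, ATF4, DDIT3 and CHAC1 were named after their values were seen. Alternatives changed the filter, scaling, pseudocount (16 or 64), intensity trend, probe sets, arrays and replicate block. The p53 gene itself was not analysed here.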

Additional observations from a re-analysis of the deposited data

Results flagged for a closer look

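By limma's test of the difference, the effect of EZH2 knockdown differed between KARPAS-422 and Pfeiffer for 3 of the genes named. That test assumes that Pfeiffer varies like KARPAS-422, and 1.7% of all genes passed it. Of the 3, FAS was named after its values were seen, so its call is no independent result. GADD45A rose by 1.96 more in KARPAS-422 (adjusted p = 0.00444), at 2.64 against 0.67. CREBBP rose by 1.17 more (adjusted p = 0.0225), at 1.46 against 0.29. FAS had a difference of -1.70 (adjusted p = 0.00474), at -0.19 in KARPAS-422 and 1.51 in Pfeiffer. All 3 lost the call without KARPAS-422 shEZH2 replicate 1 (GADD45A 1.95, CREBBP 1.14, FAS -1.73; adjusted p = 0.116, 0.172 and 0.116) or shEZH2 replicate 2 (1.98, 1.21 and -1.68; adjusted p = 0.102, 0.148 and 0.102), settings under which 0% of all genes passed. With no intensity trend none of GADD45A, CREBBP and FAS passed (adjusted p = 0.104, 0.164 and 0.111), where 0.00767% of all genes did. CREBBP did not pass when averaged over kept probe sets (1.65, adjusted p = 0.168), nor FAS without _s_at and _x_at probe sets (-3.66, adjusted p = 0.0785).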

How the results depend on the processing

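GADD45A and TP53INP1 kept direction and call in KARPAS-422 under all alternatives. The other 4 called genes kept direction wherever they had a value, but lost the call under some alternatives. The number of the 8 genes called in KARPAS-422 was 6, and 3 without the filter, 2 after cyclic loess, 2 without the intensity trend and 2 to 5 with 1 array left out. Over both lines it was 2, and 0 without the trend, 1 with the replicate block and 0 to 1 with 1 array left out. For the difference between lines it was 1, and 0 without the trend and 0 to 2 with 1 array left out, and for the control arms 3, and 2 without the trend and 3 to 5 with 1 array left out. Of the 18 kept probe sets 10 were called, and 6 without the filter, 6 after quantile normalization, 5 after loess, 2 without the trend and 2 to 10 with 1 array left out. Across genes, the gap between the KARPAS-422 replicates with shNTC was nearly uncorrelated with that with shEZH2 (r = 0.0065). This does not show whether same-numbered arrays were handled together. The block gave 6, 1, 1, 4 and 10 called. The share of all genes called moved with the setting too. In KARPAS-422 it was 25.4%, and 13.1% without the filter, 21.5% after loess, 5.52% without the trend and 27.8% with the block. Over both lines it was 6.22%, and 0% without the trend and 0.0844% with the block. Between lines these 3 shares were 1.7%, 0.00767% and 2.9%, and in the controls 44.2%, 35% and 43.4%. Of all kept probe sets 21.5% were called. The MDM2 difference in KARPAS-422 turned to -0.048 (quantile), -0.055 (median centring), -0.017 (loess) and -0.082 (mean of probe sets), and was -0.18 to 0.19 with 1 array left out. Over both lines MDM2 was 0.030 (mean), 0.49 (without _s_at and _x_at probe sets) and -0.18 to 0.036, and between lines -0.34 (mean) and -0.013 to 0.36. A dimmer MDM2 probe set was -0.040 to 0.24 in KARPAS-422 with 1 array left out. SESN2 with 1 array left out was -2.21 to 0.70 in KARPAS-422 (-2.44 to 0.21 on its other probe set), -1.38 to 0.28 over both lines, -1.91 to 0.99 between lines and -1.16 to 1.75 in the controls, ATF4 -1.24 to 0.031 and CHAC1 -4.29 to 1.13. Between lines, SESN1 was -0.15 (quantile), -0.039 (loess), -0.016 and -0.074 (pseudocounts 16 and 64) and -0.34 to 0.39, ZMAT3 -0.021 (quantile) and -0.025 to 0.34, and TP53INP1 0.033 (pseudocount 64). In the controls EZH2 was 0.19 and MDM2 0.060 after median centring, and EZH2 0.023 with the block and -0.073 to 0.066 with 1 array left out. Beyond the arrays left out, which leave 1 array in an arm that is assumed to vary like the others, the cause was not tested. CCNG1, SESN1 and SESN2 have no value without _s_at and _x_at probe sets. Signal over background limits the 6 dim probe sets.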
